A study of Mus musculus with 4 samples.

Results

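The germline and meiosis genes are 40 genes with functions in egg and sperm precursors, chosen by symbol, and their RNA was measured in mouse embryonic stem cells. All 40 symbols were found in the deposited table, 1 row each, among 46603 gene IDs. By role, 10 belong to the synaptonemal complex and chromosome axis, 9 to the piRNA pathway, 5 to recombination and 16 to other germline functions. Every member had a count in at least 1 library, and 38 had a mean normalized count of at least 10. Spo11 and Nanos2 lay below that level.

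The study sequenced polyadenylated RNA of wild-type cells (Gsk3a+/+;Gsk3b+/+) and of double knockout cells (Gsk3a-/-;Gsk3b-/-), with 2 biological replicates of each. Gsk3a and Gsk3b encode both forms of glycogen synthase kinase 3, which marks beta-catenin for degradation. Both genotypes were grown in fetal bovine serum with leukaemia inhibitory factor, on gelatin and irradiated mouse embryonic fibroblasts that can add their own RNA. Embryonic day 16 stands in the sample labels, and another number, which may be an age or a line name, in the design text. The labels describe neither the alleles nor the number of clones, and p-values here measure the spread between these samples only.

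The data are 1 table that sets a group A against a group B. Neither its header nor the labels tie the genotypes to these letters. Every value is therefore given as B over A, without assigning a genotype. A normalized count is a read count divided by the size factor of its library. The whole counts of the 2 libraries behind each group mean were recovered, and these libraries were named A1 and A2 for group A and B1 and B2 for group B, with numbers that do not follow the labels. A call means an adjusted p under 0.05 in the authors' deposited table, over all 30237 genes with a count. Higher and lower always refer to group B.

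During meiosis the sister chromatids are held on a protein axis by cohesin, programmed DNA breaks are repaired from the homologous chromosome, and the synaptonemal complex joins the homologs along their length. In parallel, germ cells use small RNAs called piRNAs, bound to Piwi proteins, to silence transposons. Embryonic stem cells do not enter meiosis. Many of these genes are known to be held down in them by DNA methylation and by a Polycomb complex that binds through Mga with Max (E-box sites) and E2f6 (E2F sites).

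Library totals ranged from 112655210 to 146326307 counts. No gene of chromosome X, Y or M had a count (2601, 1570 and 37 genes are listed at 0), and all 40 members are autosomal. Gsk3a had 6353, 7104, 1697 and 1347 normalized counts in A1, A2, B1 and B2, with a log2 fold change of -2.14 and an adjusted p of 4.90e-24 in the authors' deposited table. Gsk3b had 5438, 6285, 5051 and 5002 (-0.22, adjusted p 0.984 from the authors' deposited table). The 10 markers of pluripotent cells, all detected, summed to 846458 and 905284 in group A and 741774 and 744063 in group B. Of these markers 3 (Utf1, L1td1 and Lin28a) were called lower, against 1.92% of all genes. Limma kept Utf1 of the 3 (limma adjusted p 0.0312, 0.062 and 0.0808). The 10 feeder fibroblast markers summed to 227316 and 168433 in group A and to 123629 in B1 and 350406 in B2, and 0 were called by the authors' test (1 at an unadjusted p under 0.05). Limma called 1 of them higher, Pdgfra, with 1139, 770, 7979 and 3608 (2.52, SE 0.39, adjusted p = 0.0456 in limma). Markers of late germ cells summed to 555 to 678 in group A and 644 to 740 in group B. Of these 8 markers Tnp1 was listed at 0, Prm1 and Prm2 had at most 4.58 in any library, and Zp3 made up most of the sum. The 4 testis somatic markers summed to 762 and 1083 in group A and 919 and 1010 in group B.

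Promoter windows are shown first for members that the results turn on. RefSeq entries on GRCm38.p6, from 250 bases before to 50 after a start site, were found for 35 of the 40 members. No entry was found for Spo11, Tex15, Dnd1, Piwil2 and Meiob. The stretches below lie upstream of annotated exons. Capitals mark matches to the E-box CACGTG, which reads the same on both strands, or to the E2F core TTCCCGC and its reverse complement GCGGGAA. They are printed 5′ to 3′ on the gene's strand for Mael (chr1:166238748-166238994, minus), Sycp3 (chr10:88459337-88459568, plus) and Rpl10l (chr12:66284402-66284651, minus), which were called lower. Brdt (chr5:107330944-107331158, plus) was called higher, and Hormad1 (chr3:95559427-95559676, plus), which holds both motifs, was not called.
Mael: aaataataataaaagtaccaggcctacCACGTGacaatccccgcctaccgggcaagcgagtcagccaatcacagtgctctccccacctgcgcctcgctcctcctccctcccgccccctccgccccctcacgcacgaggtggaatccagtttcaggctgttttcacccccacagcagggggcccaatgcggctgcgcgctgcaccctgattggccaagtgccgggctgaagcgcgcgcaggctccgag
Sycp3: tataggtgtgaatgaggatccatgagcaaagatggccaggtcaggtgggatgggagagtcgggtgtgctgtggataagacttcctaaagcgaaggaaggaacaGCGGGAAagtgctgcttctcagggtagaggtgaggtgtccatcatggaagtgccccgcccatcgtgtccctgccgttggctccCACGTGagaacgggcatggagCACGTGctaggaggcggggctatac
Rpl10l: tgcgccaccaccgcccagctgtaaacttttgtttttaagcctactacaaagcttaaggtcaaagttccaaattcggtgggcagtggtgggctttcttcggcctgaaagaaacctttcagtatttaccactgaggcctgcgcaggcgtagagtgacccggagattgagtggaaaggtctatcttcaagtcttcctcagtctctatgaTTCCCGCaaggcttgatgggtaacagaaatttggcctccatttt
Brdt: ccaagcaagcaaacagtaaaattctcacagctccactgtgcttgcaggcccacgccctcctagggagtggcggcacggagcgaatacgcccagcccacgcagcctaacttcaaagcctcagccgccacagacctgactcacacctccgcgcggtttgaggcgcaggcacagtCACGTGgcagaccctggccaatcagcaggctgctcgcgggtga
Hormad1: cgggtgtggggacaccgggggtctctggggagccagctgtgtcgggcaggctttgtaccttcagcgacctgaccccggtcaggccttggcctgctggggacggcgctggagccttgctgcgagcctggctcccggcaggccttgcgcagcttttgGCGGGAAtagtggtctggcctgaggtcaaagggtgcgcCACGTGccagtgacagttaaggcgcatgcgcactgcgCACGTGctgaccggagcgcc

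By these windows Sycp3 has 2 E-boxes, at -64 and -43 from its start site, and an E2F core at -147. Hormad1 has the same set, with E-boxes at -57 and -20 and an E2F core at -95. Mael and Brdt each hold 1 E-box, at -223 and -78, and Rpl10l holds 1 E2F core at -44. Among the 35 members with an entry, 13 (37.1%) had an E-box, against 8.09% of the 27025 genes in the RefSeq table and 12.3% of its 12388 genes with a CpG-rich window (at least 10 CpG). The E2F core was found in 11 members (31.4%), against 5.29% of all genes and 10.2% of CpG-rich ones. Both motifs stood together in 6 members (17.1%), against 0.611% and 1.25%. Those 6 are Ddx4, Hormad1, Slc25a31, Stag3, Syce2 and Sycp3. A match is a description of letters in this window and not evidence of binding.

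Members with a motif, and members without, lay on both sides of 0. Of the 13 with an E-box, 1 was called higher and 2 lower, with a median log2 fold change of -0.06 (1.54% and 1.92% of all genes were called higher and lower). Of the 22 without one, 1 was higher and 2 lower, with a median of -0.13. Among the 11 with an E2F core, 0 were higher and 3 lower (Sycp3, Rpl10l and Tuba3a), with a median of -0.51. The 24 without the core had 2 higher and 1 lower, and a median of 0.08. The 6 with both motifs ranged from -1.02 (Sycp3) to 1.19 (Slc25a31), with a median of -0.38. These differences between motif groups were not tested.

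**Figure D1:**
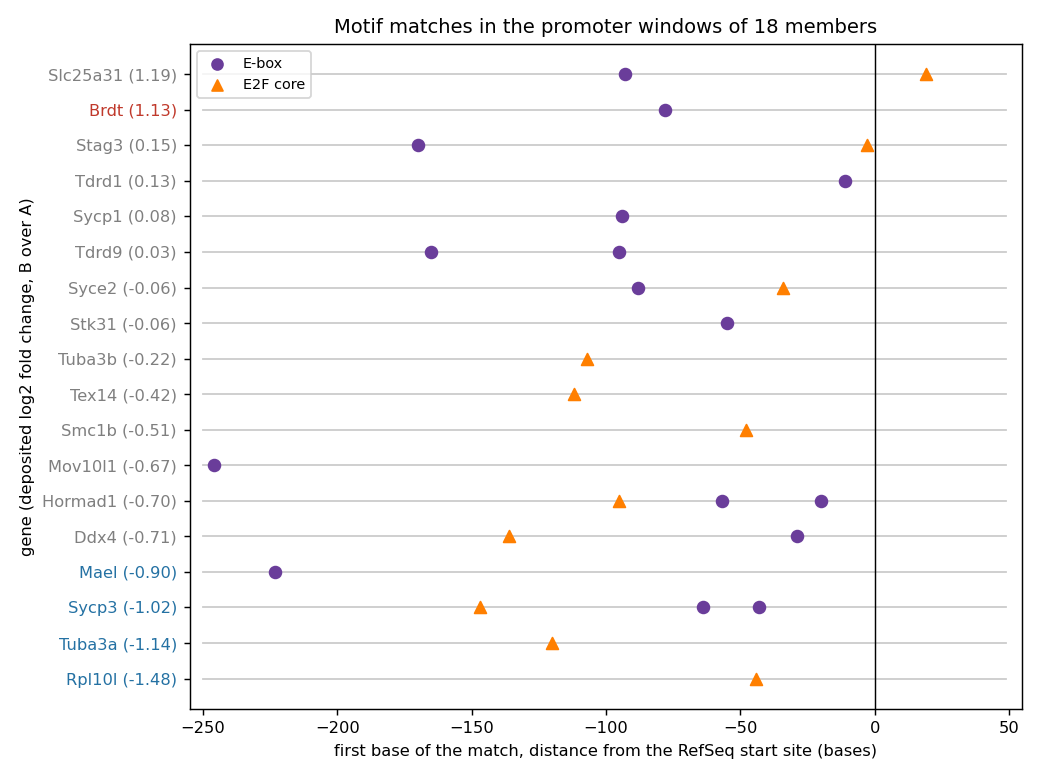
Positions of E-box (circles) and E2F core (triangles) matches in the promoter windows of the 18 members with a match, in bases from the RefSeq start site (0 on the x axis), 1 row per gene, ordered by deposited log2 fold change (in brackets). Names in blue were called lower and the name in red higher. Because of this ordering, names called lower stand at the low end with an E2F core or, for Mael, without one.

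Across all members, 3 were called higher (Rec8, Tex15 and Brdt) and 4 lower (Sycp3, Mael, Tuba3a and Rpl10l) in the authors' deposited table, and 33 were not called. Of all 30237 genes tested, 1.54% were called higher, 1.92% lower and 3.46% either way. Above a mean of 10 the share called was 5.12% of 20465 genes. At an unadjusted p under 0.05, 4 members were higher and 10 lower, against 5.11%, 5.41% and 10.5% of all genes for higher, lower and either. With limma on the recovered counts 2 members passed higher (Rec8 and Tex15) and 2 lower (Mael and Rpl10l), where 0.977% and 1.03% of genes passed, or 2.01% in all.

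The fold changes of the members spread to both sides. For the 38 members above a mean of 10, the authors' deposited table gives log2 fold changes that ran from -1.62 (Meiob) to 2.44 (Asz1), 17 above and 21 below 0. Their median was -0.09, against 0.01 over all genes of that level. The median absolute log2 fold change was 0.43 for the members and 0.25 for all genes. Both B libraries lay above both A libraries for 7 members and below them for 15, while 16 overlapped. The same held for 26.4% and 26.0% of all genes, so that 52.5% of genes did not overlap. The members together had 82003 normalized counts in A1 and 73965 in A2, against 73170 in B1 and 59613 in B2. Rpl10l alone held 17859, 16023, 7610 and 4568 of these in A1, A2, B1 and B2. The difference in the sum therefore rests largely on that gene and does not describe the list as a whole. In bulk RNA, fewer cells with a transcript and less transcript per cell cannot be told apart.

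**Figure D2:**
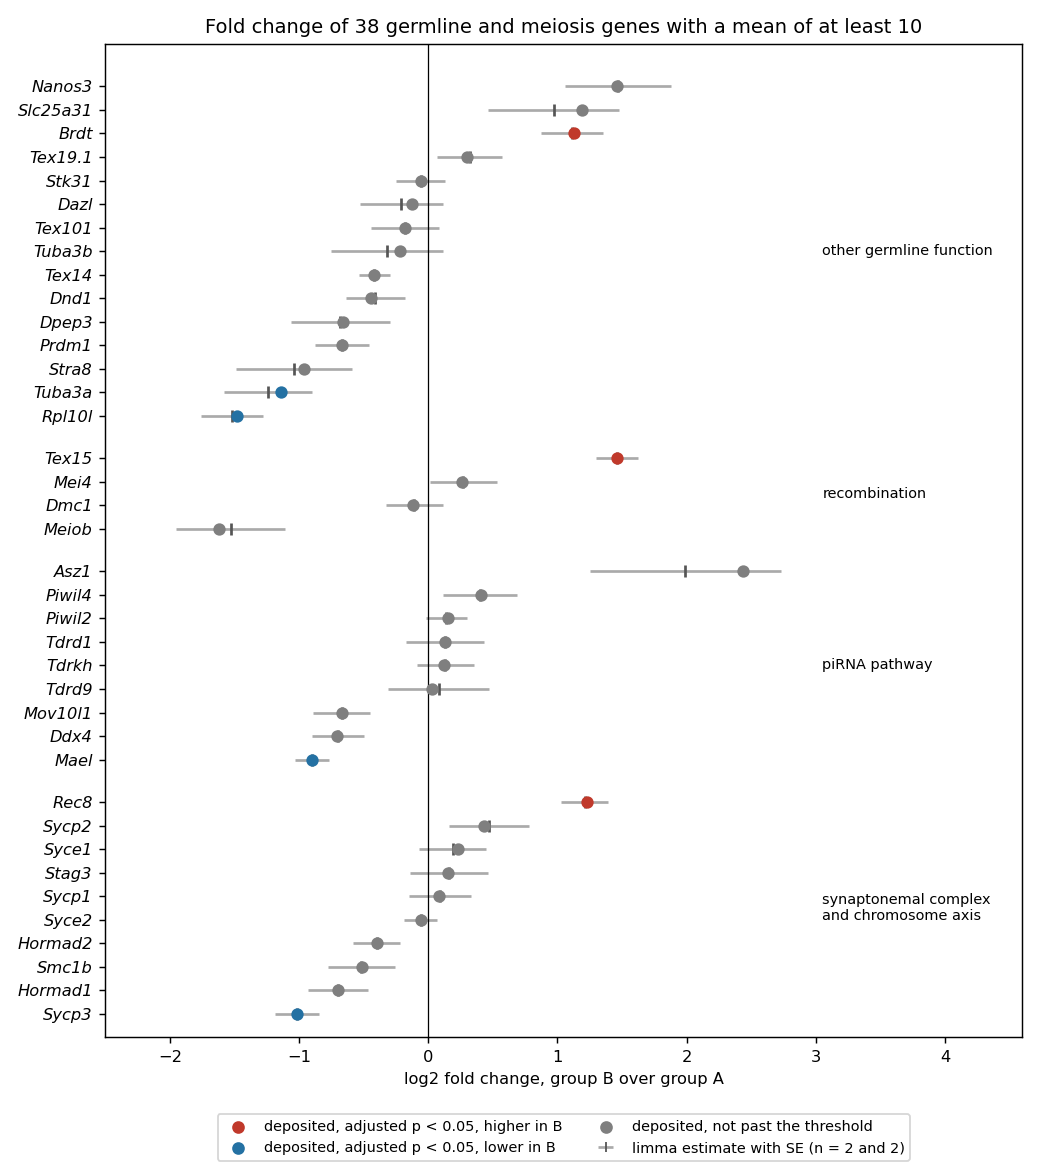
Log2 fold change, group B over group A, of the 38 members with a mean normalized count of at least 10, grouped by role. Circles are the authors' deposited values (red called higher, blue called lower, grey not called), and ticks with bars are limma estimates with their SE (2 libraries in each group). Called genes lie on both sides of 0 and in every role group.

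Per kilobase of exon, the median of the members was close to that of protein-coding genes with a count. That comparison set takes in any such gene, however low its count. Their median was 228 normalized counts per kilobase in group A and 213 in group B, against 202 and 207 for the 18311 protein-coding genes with a count. In each group 21 of the 40 lay above the protein-coding median. Rpl10l had the highest level per kilobase, 16560 in A and 5952 in B. Tex19.1 followed with 4668 and 5728, and Syce2 with 3055 and 2940. At the other end Spo11 had a single count, in A1, and Nanos2 had 0, 9.89, 2.75 and 2.36 normalized counts in A1, A2, B1 and B2.

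**Figure D3:**
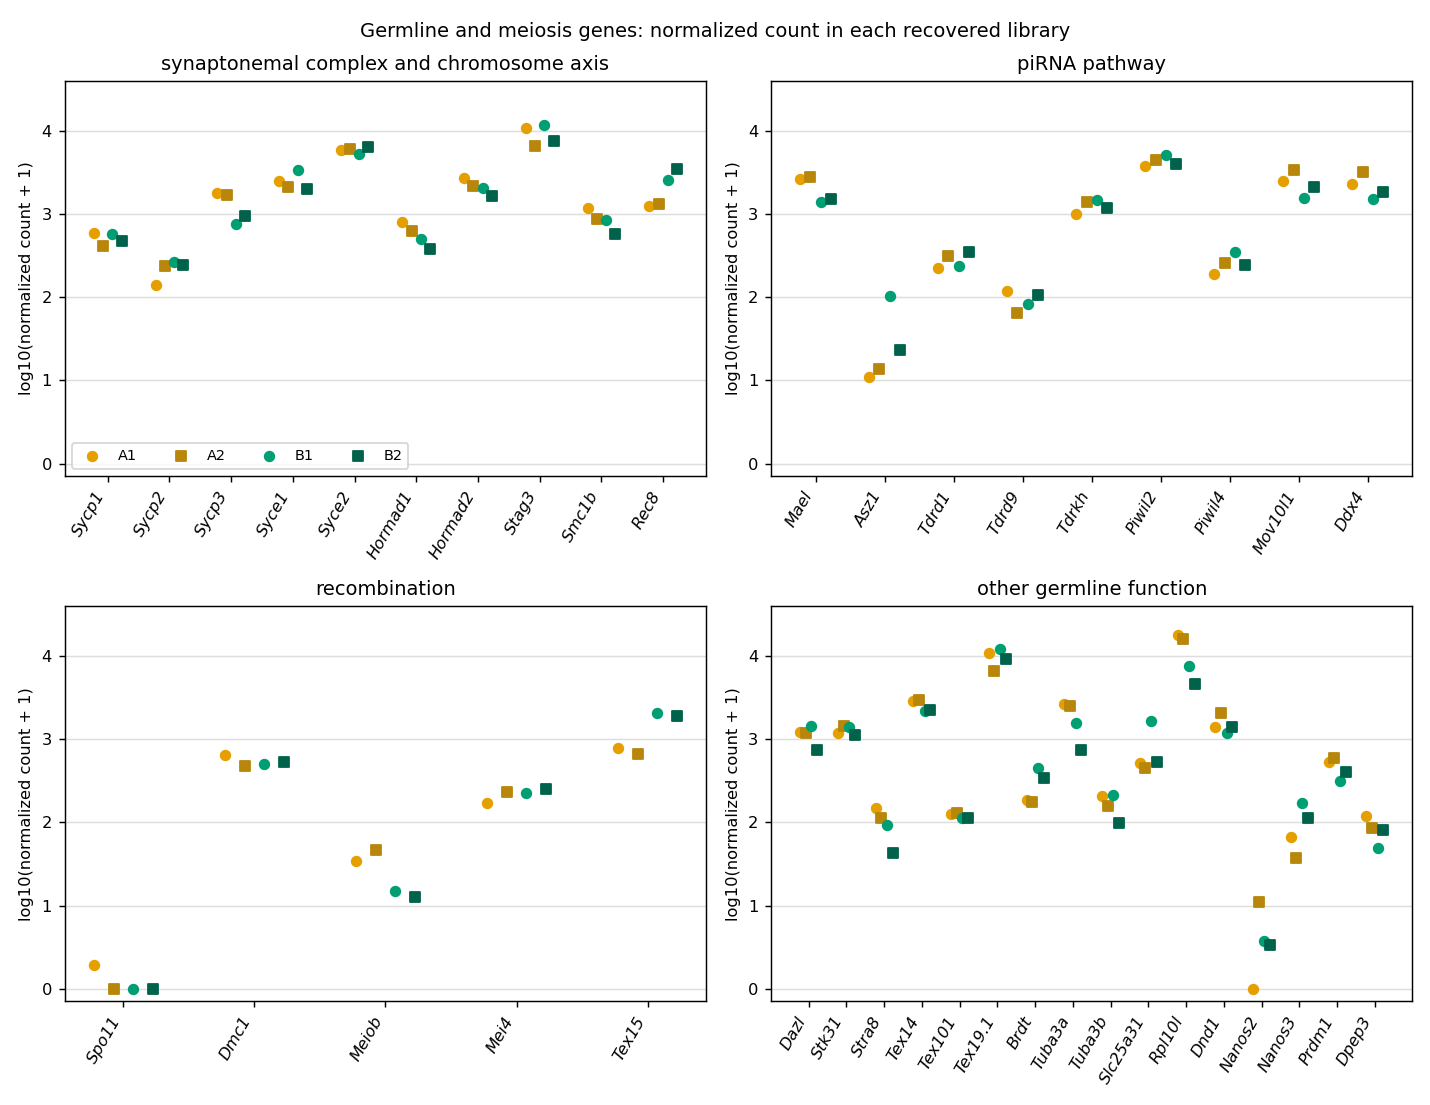
Normalized count of each member in the 4 recovered libraries, as log10(normalized count + 1), in 4 panels by role. Yellow marks are group A and green marks group B (circles for library 1, squares for library 2). Levels span from 0 (Spo11) to 17859 (Rpl10l in A1), and Rec8, Tex15, Brdt and Nanos3 show both green marks above both yellow ones.

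Of the 10 genes of the synaptonemal complex and chromosome axis, 1 rose, 1 fell and 8 did not pass, with a median log2 fold change of 0.01. Among all genes 1.54% were called higher and 1.92% lower. Rec8 (ENSMUSG00000002324, chromosome 14, 55618037 to 55625395) encodes the subunit that closes the meiotic cohesin ring. It had 1265 and 1325 normalized counts in A1 and A2, and 2586 and 3474 in B1 and B2. Both B libraries stood well above both A libraries, 2.34-fold on average (log2 fold change 1.23, adjusted p 0.00423 from the authors' deposited table). In limma the log2 fold change of Rec8 was 1.21 (SE 0.18, adjusted p = 0.0416). Its partners in meiotic cohesin did not pass. Stag3 was among the most abundant members, with 10852, 6527, 11694 and 7612, and its groups overlapped (0.15, adjusted p 1 from the authors' deposited table). Smc1b had 1185, 865, 859 and 583 (-0.51, adjusted p 0.875 from the authors' deposited table), and 859 in B1 lay just under the lowest A value.

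Sycp3 (ENSMUSG00000020059, chromosome 10, 88459569 to 88473236) encodes a structural protein of the lateral elements, the rails of the synaptonemal complex. Its values were 1781, 1689, 766 and 948 in A1, A2, B1 and B2. Both B libraries were low, 2.02-fold on average (log2 fold change -1.02, adjusted p 5.78e-05 from the authors' deposited table). Limma gave Sycp3 the same estimate of -1.02 (SE 0.17) but an adjusted p of 0.0503. Exons of Chpt1 on the opposite strand cover 660 bases (52.2%) of the Sycp3 exons. Chpt1 went the other way, with 1561, 1505, 2225 and 2093 (0.49, adjusted p 0.189 from the authors' deposited table). The strand setting of the read counter is not given in the sources used here.

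No other structural gene of the complex passed. Sycp2, the partner of Sycp3 in the lateral elements, had 140, 234, 263 and 241, with both B values just above A2 (0.43, adjusted p 0.85 from the authors' deposited table). Sycp1, the transverse filament that bridges the rails, had 585, 415, 579 and 478. For the central element, Syce1 had 2474, 2112, 3366 and 2029 and Syce2 had 5975, 6051, 5207 and 6365. All 3 of these overlapped between the groups, and the authors' deposited table gives each an adjusted p of 1. Hormad1 and Hormad2, which mark chromosome axes that are not yet synapsed, were both lower in each B library. Hormad1 had 806, 620, 496 and 380 (-0.70, adjusted p 0.219 from the authors' deposited table). Hormad2 had 2707, 2152, 2037 and 1647 (-0.40, adjusted p 0.665 from the authors' deposited table). Reads of Hormad1 can be split with Gm15529, which matches it at 97.9% over 994 bases and had 632, 448, 361 and 223 (-0.89, adjusted p 0.398 from the authors' deposited table).

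Of the 9 piRNA pathway genes, 0 rose, 1 fell and 8 did not pass in the authors' deposited table. Their median log2 fold change was 0.12, and 3 were lower at an unadjusted p under 0.05. Among all genes 1.54% were called higher and 1.92% lower, and 5.41% were lower at an unadjusted p under 0.05. Mael (ENSMUSG00000040629, chromosome 1, 166201201 to 166238747) encodes maelstrom, a protein needed for transposon silencing in the male germline. It had 2612 and 2800 normalized counts in A1 and A2, and 1407 and 1500 in B1 and B2. The libraries within a group were close, and both B libraries were low, 1.86-fold on average (log2 fold change -0.90, adjusted p 3.74e-04 from the authors' deposited table). Mael also passed in limma (-0.90, SE 0.13, adjusted p = 0.0416).

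Both RNA helicases with high counts had low B libraries without passing. Mov10l1, which binds piRNA precursors at the start of their processing, had 2466, 3369, 1575 and 2093 (-0.67, adjusted p 0.363 from the authors' deposited table). Ddx4, the mouse homolog of Vasa, had 2298, 3177, 1505 and 1836 (-0.71, adjusted p 0.273 from the authors' deposited table). In each of these genes the lowest A value lay above the highest B value. In limma the adjusted p was 0.168 for Mov10l1 and 0.137 for Ddx4.

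The Piwi genes among the members overlapped between the groups. Piwil2, the most abundant member of the pathway, had 3791, 4499, 5146 and 4039 (0.15, adjusted p 1 from the authors' deposited table). Piwil4, which acts in the nucleus, had 190, 255, 351 and 241. The members of this pathway with Tudor domains, which bind methylated Piwi proteins, also overlapped. Tdrd1 had 222, 311, 236 and 350. Tdrd9 had 119, 64.3, 81.6 and 105. Tdrkh had 1012, 1414, 1459 and 1174. Their log2 fold changes ran from 0.03 (Tdrd9) to 0.13 (Tdrd1), and 36.7% of the Tdrkh exons lie opposite exons of Oaz3.

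Asz1, a mitochondrial anchor of piRNA processing, had the largest log2 fold change of the list and did not pass. It had 10.1 and 12.9 in group A, 103 in B1 and 22.5 in B2. Both B libraries were higher, but B1 was 4.57-fold above B2 (2.44, adjusted p 0.829 from the authors' deposited table). Limma gave Asz1 1.99 (SE 0.74, adjusted p = 0.213). The limma log2 fold change was 3.06 (adjusted p = 0.0277) without B2 and 0.92 without B1, so its size rests on B1.

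Among the 5 recombination genes, 1 rose and 4 did not pass, where 1.54% of all genes were called higher. Tex15 (ENSMUSG00000009628, chromosome 8, 33516738 to 33585582) encodes a protein needed for repair of meiotic DNA breaks and for transposon silencing in fetal male germ cells. It had 777 and 669 in A1 and A2, and 2084 and 1889 in B1 and B2. The groups were far apart relative to their spread, 2.75-fold on average, and Tex15 had the smallest adjusted p of all members (log2 fold change 1.46, adjusted p 5.71e-10 from the authors' deposited table). It passed in limma as well (1.46, SE 0.16, adjusted p = 0.0309).

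The genes that make or exchange the breaks did not pass. Spo11, the enzyme that cuts the DNA, had 1 count in A1 and 0 in the other libraries, where a count of 0 allows up to 3. Mei4, which is needed for Spo11 to cut, had 169, 228, 222 and 253 (0.26, adjusted p 1 from the authors' deposited table). Dmc1, the meiotic recombinase that pairs broken ends with the homolog, had 650, 471, 496 and 532, and its groups overlapped (-0.12, adjusted p 1 from the authors' deposited table). Meiob, a single-stranded DNA binding protein, had 33.2 and 45.5 in group A against 13.8 and 11.8 in group B. Both B libraries were low, 3.08-fold on average, at raw counts of 36, 46, 15 and 10 (log2 fold change -1.62, adjusted p 0.393 from the authors' deposited table). Limma gave Meiob -1.53 (SE 0.42, adjusted p = 0.123).

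The 16 members with other germline functions had 1 gene that rose, 2 that fell and 13 that did not pass, with a median log2 fold change of -0.22. The shares called among all genes were 1.54% higher and 1.92% lower. Rpl10l (ENSMUSG00000060499, chromosome 12, 66283379 to 66284401) is an autosomal retrogene copy of the X-linked ribosomal protein gene Rpl10 and is known to stand in for it during male meiosis. It had 17859, 16023, 7610 and 4568 normalized counts in A1, A2, B1 and B2. Both B libraries were low, 2.78-fold on average, and B2 was lower than B1 (log2 fold change -1.48, adjusted p 1.06e-07 from the authors' deposited table). In limma Rpl10l passed with -1.52 (SE 0.24, adjusted p = 0.0458). Rpl10 itself is listed at 0 in all libraries, and its transcript matches Rpl10l at 84.3% over 664 bases. A closer copy on chromosome 2, Gm14460, matches at 97.3% over 639 bases and had 515, 438, 226 and 119 (-1.47, adjusted p 2.53e-04 from the authors' deposited table, and adjusted p = 0.0853 in limma). How reads were shared among these copies is not given in the sources used here, so the level of Rpl10l is uncertain to that extent.

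Tuba3a (ENSMUSG00000067702, chromosome 6, 125278274 to 125286042), an alpha-tubulin known from testis, had 2636, 2477, 1576 and 746. Both B libraries were low and B1 was 2.11-fold above B2 (log2 fold change -1.14, adjusted p 0.0405 from the authors' deposited table). In limma Tuba3a had -1.24 (SE 0.34, adjusted p = 0.127), and without B2 the estimate was -0.70. Tuba3b, which matches Tuba3a at 96.5% over 1447 bases, had 206, 158, 215 and 96.9 and overlapped (-0.22, adjusted p 1 from the authors' deposited table).

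Brdt (ENSMUSG00000029279, chromosome 5, 107331159 to 107387058) encodes the testis bromodomain protein, a reader of acetylated histones in spermatogenesis. Its values were 186 and 174 in group A, and 452 and 337 in group B. Both B libraries were higher, 2.19-fold on average (log2 fold change 1.13, adjusted p 0.00523 from the authors' deposited table). Limma gave Brdt 1.11 (SE 0.24) with an adjusted p of 0.0808. Slc25a31, an ADP/ATP carrier of the sperm mitochondria, had 513, 449, 1661 and 532. B1 alone stood apart, and B2 lay close to A1 (log2 fold change 1.19, adjusted p 0.983 from the authors' deposited table). The limma estimate for Slc25a31 was 1.79 (adjusted p = 0.0104) without B2 and 0.15 without B1.

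Among the RNA-binding proteins that protect early germ cells, Nanos3 had 65.4, 36.6, 170 and 111. Both B libraries were higher, 2.75-fold on average, and it did not pass (log2 fold change 1.46, adjusted p 0.0865 from the authors' deposited table). Limma gave Nanos3 1.47 (SE 0.41, adjusted p = 0.128). It passed when the deposited p-values were adjusted over genes with a mean of at least 50 alone. Dnd1 had 1397, 2094, 1179 and 1403, and B2 lay just above A1 (-0.44, adjusted p 0.931 from the authors' deposited table). Dazl, a translational regulator of germ cells, had 1206, 1188, 1446 and 740, with B1 the highest and B2 the lowest of the 4. Prdm1, the transcriptional repressor that specifies primordial germ cells, had 534, 600, 315 and 398, with both B libraries low (-0.67, adjusted p 0.104 from the authors' deposited table).

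The gene that responds to retinoic acid at meiotic entry, Stra8, had 147, 113, 92.6 and 41.4 (-0.96, adjusted p 0.502 from the authors' deposited table). Tex14, a protein of the bridges between germ cells, had 2894, 2997, 2177 and 2239. Its libraries were close within each group and lower in B, without passing (-0.42, adjusted p 0.349 from the authors' deposited table). Tex19.1, a controller of retrotransposons in germ and pluripotent cells, had 10802, 6676, 12178 and 9267 and overlapped (0.30, adjusted p 1 from the authors' deposited table). The Tudor-domain kinase gene Stk31 had 1194, 1451, 1402 and 1134 and overlapped too. For Tex101, a surface protein of germ cells, the values were 126, 128, 111 and 113. For Dpep3, a membrane dipeptidase found in testis, they were 119, 85, 48.6 and 80.4. Both were lower in each B library, with log2 fold changes of -0.18 (adjusted p 1) and -0.66 (adjusted p 0.677), taken from the authors' deposited table.

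With each library left out in turn, the 7 called members kept their direction in every fit. Estimates ran from 1.35 to 1.57 for Tex15, 1.0 to 1.42 for Rec8 and 0.90 to 1.32 for Brdt. They ran from -0.95 to -0.85 for Mael, -1.18 to -0.87 for Sycp3, -1.89 to -1.15 for Rpl10l and -1.77 to -0.70 for Tuba3a. Mael and Tex15 moved little, while Tuba3a depended most on which B library was kept. Without A1 or without A2, limma called 0 of 20465 genes (2420 and 2034 at an unadjusted p under 0.05), so no member could pass there. Adjusted p in these 2 fits was 0.18 and 0.312 for Tex15, the lowest of the 7 in each.

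**Figure D4:**
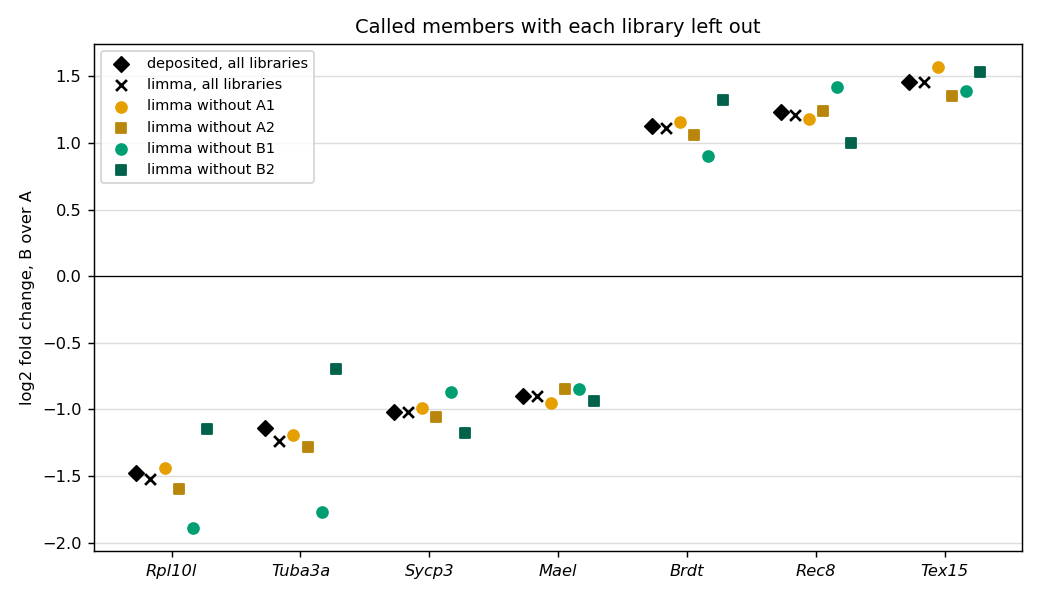
Log2 fold change, group B over group A, of the 7 called members in the authors' deposited table (diamonds), in limma with all libraries (crosses) and in limma with 1 library left out (yellow without an A library, green without a B library). All points of a gene lie on the same side of 0, as they must where the libraries of the groups do not overlap. Tuba3a has the widest range, from -1.77 to -0.70.

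Some cell-state markers moved in the same order as part of the list. The 6 markers of 2-cell-like cells, a rare state of stem cell cultures, summed to 12955 and 7127 in A1 and A2, and to 2989 and 981 in B1 and B2. All 6 were lower at an unadjusted p under 0.05, against 5.41% of all genes. The authors' deposited test called 1 of 6 lower, Duxf3, with 236, 162, 70.6 and 9.46 (1.92% of all genes were called lower). Limma tested the 5 with a mean of at least 10 and called 0, with an adjusted p of 0.153 for Duxf3. The counts of Rpl10l, Tuba3a, Stra8, Hormad1, Hormad2 and Smc1b also stood in the order A1, A2, B1, B2 from high to low. Their range was narrower than that of the 2-cell-like sum. These members were picked for this order, from the 15 with both B libraries below both A libraries. B libraries lay below A in that way for 26.0% of the 20465 genes tested by limma. How many of those genes share the full order was not tested, so the match does not link these members to the 2-cell-like state. Feeder fibroblast markers, whose sum was lowest in B1 and highest in B2, ran against the order of Asz1, Slc25a31 and Nanos3 within group B. That sum is carried mostly by Fn1 and collagens, but Postn, Thy1, Pdgfrb, Dcn and Lum were also lower in B1 than in B2. Pdgfra alone among the feeder markers was higher in both B libraries and highest in B1, the order of Asz1, Slc25a31 and Nanos3. The part of 2-cell-like or feeder cells, or of the pluripotent state whose markers are given above, in these differences was not tested.

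Other genes of the same pathways were taken from wider lists. Of 30 further meiosis genes, 29 were in the table and 28 had a count. The authors' test called 3.57% of these 28 either way, close to the 3.46% of all genes (1.54% higher and 1.92% lower). It called 0 of the 28 higher and 1 lower. That gene was Hsf2bp, a partner of Brca2 in meiotic recombination, with 10435, 9964, 6253 and 5491 (-0.80, adjusted p 0.00133 from the authors' deposited table, and adjusted p = 0.0393 in limma). Brca2, an abundant gene of the list that also repairs DNA outside meiosis, had a log2 fold change of -0.18 (adjusted p 1 from the authors' deposited table). The X-linked Tex11 is listed at 0. The median of this list was -0.15.

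Of 17 further piRNA pathway genes, all with a count, 1 (5.88%) was called higher and 2 (11.8%) lower, against 1.54% and 1.92% of all genes. The list had a median log2 fold change of -0.10. Fkbp6, a cochaperone of piRNA loading, rose from 1360 and 1060 to 2783 and 2353 (1.09, adjusted p 1.29e-05 from the authors' deposited table, and adjusted p = 0.0503 in limma). Morc1, which silences transposons in male germ cells, fell from 21915 and 22034 to 12319 and 9847 (-0.99, adjusted p 1.79e-05 from the authors' deposited table, and adjusted p = 0.032 in limma). Btbd18, a nuclear factor for transcription of piRNA precursors, fell from 404 and 439 to 195 and 184 (-1.15, adjusted p 0.00192 from the authors' deposited table, and adjusted p = 0.058 in limma). Dnmt3l, the cofactor of DNA methylation in germ cells and the most abundant of this list, had 65123, 67963, 50465 and 42089 (-0.52, adjusted p 0.104 from the authors' deposited table).

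Known repressors of germline genes in stem cells were measured as well. Of 27 listed, 26 had a count, the X-linked Kdm5c being at 0, and 0 were called by the authors' test or by limma. The authors' test called 3.46% of all genes and limma 2.01% of those it tested, so 0 of 26 says little about these repressors. At an unadjusted p under 0.05 in the authors' deposited table, 3 were higher (E2f6, Ring1 and Yaf2) and 4 lower (Wdr5, Atf7ip, Ehmt2 and Dnmt3a). Of all genes, 5.11% were higher and 5.41% lower by that measure. E2f6, which binds the E2F core, had 4624, 4227, 5832 and 6051 (0.43, adjusted p 0.302 from the authors' deposited table). Mga and Max, which bind the E-box, had log2 fold changes of 0.03 and -0.11 (adjusted p 1 for each from the authors' deposited table). Dnmt3a, a DNA methyltransferase, had 8475, 11088, 6101 and 5267 (-0.78, adjusted p 0.0799 from the authors' deposited table). Trim28 and Uhrf1, the most abundant of the list, had -0.26 and -0.05 (adjusted p 0.889 and 1 from the authors' deposited table). The median of the 26 was -0.16.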

How the data were processed

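RNA of 4 mouse embryonic stem cell samples, 2 wild type and 2 double knockout, was sequenced from stranded TruSeq libraries, per the labels' protocols. STAR, DESeq and mm10 are named, without versions, in the submitters' processing notes. Not given in the sources used here are the read counter and whether it used strand, the annotation release and any filter. Per the file headers, the authors' deposited table holds for each gene the mean normalized count (reads divided by size factors) of groups A and B, their ratio, its log2, and a p-value with an adjusted p-value. It has 46608 rows, and 5 repeated rows were used once.

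Each group mean was resolved into whole counts of its 2 libraries, within a tolerance of 1e-06 for 28616 of 28616 genes in group A and 28353 of 28353 in group B. The closest pair was taken, and a second pair within the tolerance existed for 1700 and 5 genes. Size factors were 1.086, 1.011, 1.091 and 0.8458 in A1, A2, B1 and B2. The main test was the authors' adjusted p, with 0.05 as the threshold. The alternative was limma 3.58.1 in R 4.3.3, two-sided, with Benjamini-Hochberg adjustment. It was fitted with its trend option to log2(normalized count + 1) for the 20465 genes whose mean was at least 10. This scale understates the change of low genes. The procedures were checked on simulated counts. A count of 0 was taken to allow up to 3 counts, which covers counting error only, and the spread between 2 libraries limits precision.

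The members and lists were chosen with earlier results of these data known. Values are given per library for every member. By rule these were the members past a threshold, those with an absolute log2 fold change of at least 1 and a mean of at least 10, and the 2 most abundant of each role. The other members' library values, those of copies and overlapping genes, and the repressors named at an unadjusted p or as binders of a motif were added after their values were seen. Of the wider lists, called genes and the 2 most abundant were named, except that 1 gene is not reported here. Positions and exon lengths are from GENCODE M21 (mm10). Copies were found with blastn 2.17.0. Motifs were searched in RefSeq promoter windows (GRCm38.p6), and the windows to print were chosen after the calls were seen. Other settings tried were the filter, threshold, pseudocount, scaling and each library left out.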

Additional observations from a re-analysis of the deposited data

How the results depend on the processing

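The number of members called higher was 3, and it was 2 in limma and 0 to 5 in limma with 1 library left out (0 without A1 or A2, 5 without B2). It was 4, with Nanos3 added, at a threshold of 0.1 or with the deposited p adjusted only over genes whose mean was at least 50. The number called lower was 4. It was 2 in limma, 2 in limma with no filter on low values and 2 in limma with a pseudocount of 0.5, and Sycp3 and Tuba3a are the genes lost. It was 3, with only Tuba3a lost, in limma with a pseudocount of 5, with total-count scaling or with upper-quartile scaling. The same 3 passed the authors' test at a threshold of 0.01. With 1 library left out it was 0 to 4. The cause was not tested, except that leaving out a library also leaves fewer samples. The median log2 fold change of the members was -0.09 and ran from -0.19 to -0.12 with 1 library left out. Sycp3, Brdt and Tuba3a passed the authors' test but not limma (limma adjusted p 0.0503, 0.0808 and 0.127). Sycp3, the closest of the 3, passed limma with total-count scaling (adjusted p = 0.0498). Of the 17 members named by rule, 12 kept their direction in every setting. Libraries of these 12 did not overlap between the groups, so leaving 1 out could not change their sign. The other 5, none called, changed sign with 1 library left out, and their estimates ran from -0.21 to 0.08 (Syce2), -0.20 to 0.53 (Stag3, -0.14 without B1), -0.03 to 0.32 (Piwil2), -0.34 to 0.13 (Dmc1) and -0.02 to 0.67 (Tex19.1). No paired analysis was possible because the table has no column of a single sample and no replicate number. Depth limits Spo11, Nanos2, Asz1 and Meiob, which rest on few counts.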

Other observations

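Genes of primordial germ cells, the embryonic precursors of egg and sperm, were taken as a further list of 20, which overlaps the lists above in Fkbp6. Of these, 17 had a count, and the X-linked Rhox5, Rhox6 and Rhox9 are listed at 0. By the authors' deposited test, 2 (11.8%) were called higher (Fut4 and Fkbp6) and 4 (23.5%) lower (Prdm14, Ifitm3, Ifitm1 and Lin28a). The list had a median log2 fold change of -0.14, and 1.54% of all genes were called higher and 1.92% lower. Limma called 1 higher (Fut4) and 1 lower (Ifitm1). Fut4, an enzyme able to make the SSEA1 surface sugar, had 49.7 and 41.5 normalized counts in group A against 245 and 169 in group B (2.18, adjusted p 1.98e-04 from the authors' deposited table, and adjusted p = 0.0416 in limma). SSEA1 itself was not measured. Ifitm1, an interferon-induced membrane protein also made in early germ cells, had 7087, 7863, 2451 and 2661 in A1, A2, B1 and B2 (-1.55, adjusted p 2.15e-13 from the authors' deposited table, and adjusted p = 0.0255 in limma). Its neighbour in the family, Ifitm3, had 11239, 11607, 6930 and 4555 (-0.99, adjusted p 3.03e-04 from the authors' deposited table, and adjusted p = 0.066 in limma). Prdm14, a transcriptional regulator of both pluripotent and germ cells, had 3044, 3108, 1991 and 1909 (-0.66, adjusted p 0.0251 from the authors' deposited table, and adjusted p = 0.0606 in limma). Lin28a, which blocks let-7 maturation, had 28487, 28950, 21204 and 16260 (-0.62, adjusted p 0.034 from the authors' deposited table, and adjusted p = 0.0808 in limma). The most abundant genes of this list, Dppa5a and Nanog, did not pass, with log2 fold changes of 0.04 and -0.33. Several of these genes are also expressed by stem cells in general, and Lin28a, Nanog and Dppa5a are among the pluripotency markers above.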
